A study of Mus musculus with 16 samples.

Results

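The T cell receptor complex and the proteins that carry its signal are described here through 41 genes, chosen by symbol from the 24028 genes of the count table. They comprise 4 CD3 and zeta chains, 4 co-receptors and surface molecules, 5 kinases, 6 adaptors and scaffolds, 5 effector enzymes and exchange factors, 5 genes of the NF-kappaB and NFAT branches, 3 phosphatases and 9 brakes. All 41 were present in the table and all passed the filter on low counts. A T cell recognises a peptide on an MHC molecule through the alpha and beta receptor chains, which have no signalling tails of their own. The CD3 chains and the zeta chain carry those tails, the kinase LCK, brought in by the CD8 co-receptor, phosphorylates them, and ZAP-70 then docks and phosphorylates the scaffold LAT. From LAT the signal spreads to calcium and NFAT, to RAS, and to NF-kappaB, while phosphatases, ubiquitin ligases and inhibitory adaptors hold it back. In CD8 T cells inside tumours, prolonged receptor signalling is a known feature of the exhausted state.

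The CD8 T cells came out of tumours raised in BALB/c mice by injecting TS/A, a mammary adenocarcinoma line of the mouse, into the mammary pad. Cells were sorted as live, positive for CD45.2 and CD8 and negative for CD4. The groups, of 4 libraries each, were entinostat at day 17, vehicle at day 17, entinostat at day 10 and vehicle at day 10 after injection. Entinostat (ENT), an inhibitor of class I histone deacetylases, or vehicle was given daily from day 7, entinostat at 20 mg/kg, so tumours were taken 10 or 3 days after the first dose. All groups carried the same tumour, and no group of untreated or tumour-free mice was analysed here. The age of the mice, and whether each library came from a separate mouse, are not given in the labels, and p-values therefore speak of the spread among these libraries, part of which may be technical.

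Total counts ran from 554593 to 3530961 in the entinostat day 17 libraries, from 2842099 to 6975904 with vehicle at day 17, from 2639019 to 5709243 with entinostat at day 10 and from 3640768 to 4227704 with vehicle at day 10. Entinostat day 17 replicate 3, the library of 554593 counts, stood apart by its depth, and the receptor and co-receptor results at day 17, which rest on it most, are given with and without it. Depth and the counts of Actb did not move in step. The totals of the 16 libraries spanned 12.6 times and the counts of Actb 2.02 times, so that the unscaled CPM of Actb was 2917 in the shallowest library and 468.0 in the deepest. Scaled levels in entinostat day 17 replicate 3 stood at a median of 1.2 times the mean of the other 3 libraries of its group over the 100 most abundant genes, 4 of them members, at 1.03 times over the 500 most abundant, 22 of them members, and at 0.966 times over all 17414 genes. Abundant members stood on both sides in that library, such as Ptprc at 1.56 times and Cblb at 0.72 times the mean of the other 3. A higher CPM in so shallow a library is not by itself a higher level in the cells. In the deepest library, vehicle day 17 replicate 1, members also stood on both sides. Cd3e at 308 CPM and Lck at 420.5 CPM were the lowest of that group, and Cd247 at 189 CPM and Zap70 at 219.9 CPM the highest. Leaving out entinostat day 17 replicate 3 therefore does not make the groups equal in depth. The part of depth in the fold changes below was not tested. Reads on genes of olfactory and vomeronasal receptors, which have no known role in T cells, also differed between the groups. They made up 3628 to 6901 CPM with entinostat at day 17, 636 to 5290 with vehicle at day 17, 585.9 to 5722 with entinostat at day 10 and 582.1 to 1863 with vehicle at day 10, and their part in the results was not tested beyond a fit with them as a covariate. Levels are CPM, counts over the total of a library, scaled by TMM, a method that sets a common scale from the bulk of the genes. A gene was called where the Benjamini-Hochberg adjusted p of edgeR's quasi-likelihood test, taken over all 17414 tested genes, was under 0.05. In CD8 T cells the markers Cd3d, Cd3e, Cd3g, Cd8a and Cd8b1, which are members, should all be present, and each was well above 0 in all 16 libraries. Their summed level was 1459 to 2530 CPM with entinostat at day 17, 1295 to 1604 with vehicle at day 17, 1348 to 1691 with entinostat at day 10 and 1592 to 1807 with vehicle at day 10. The constant genes of the receptor chains (Trac, Trbc1, Trbc2) were not analysed here.

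Markers of other cells were also present and moved with treatment. The summed level of 10 plasmacytoid dendritic cell markers, of which Irf8, Siglech and Pld4 were the most abundant and none was at 0, was 552.4 to 708 CPM with entinostat at day 17 and 2319 to 2934 with vehicle at day 17. At day 10 the same sum was 454.4 to 906.8 with entinostat and 1260 to 2647 with vehicle, and 9 of the 10 genes were called lower with entinostat on each day. Siglech averaged 45.8 CPM with entinostat and 446 CPM with vehicle at day 17, and 70.3 CPM with entinostat and 378 CPM with vehicle at day 10. The summed level of 8 conventional dendritic cell markers was 360.0 to 400.3 CPM with entinostat and 897.1 to 1288 with vehicle at day 17, and 339.5 to 482.4 with entinostat and 391.9 to 934.2 with vehicle at day 10. That of 9 macrophage and monocyte markers was 48.1 to 71.1 CPM with entinostat and 216 to 272 with vehicle at day 17, and 43.5 to 84.5 with entinostat and 79.3 to 201 with vehicle at day 10. Cd68 and Cd14 carried this sum, at 18 and 12.6 CPM with entinostat and 117 and 67.1 CPM with vehicle at day 17, and both were called lower. The mean of 5 of the 9 (Csf1r, Adgre1, C1qa, C1qb and Fcgr1) was higher with entinostat at day 17, none of them called, and at day 10 Cd68 and Cd14 were called lower and Adgre1 higher. Many members, such as Ptpn6, Nfkb1, Vav1, Csk and Cbl, are known to be expressed in dendritic cells and other leukocytes as well as in T cells. The part of these other cells in the results below was not tested. In RNA of a sorted pool, fewer cells of a type and less RNA per cell cannot be told apart.

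Per kilobase of merged exon, the members spanned a wide range of levels. Averaged over the 16 libraries, Cd8b1 was highest at 256 CPM per kb, followed by Lck at 190.0, Cd3d at 108, Cd8a at 107 and Ptpn6 at 105. Cd3g stood at 79.3 and Cd247, the zeta chain, at 35.8 CPM per kb. The lowest were Trat1 at 5.53, Sos1 at 7.99 and Nfkb1 at 9.80 CPM per kb. Trat1, the lowest member, had 4 counts in its poorest library and 234 in its richest, so its counting error is the largest of all members. Reads of overlapping genes on the opposite strand cannot be separated in these unstranded libraries. That touches Cd247, with 60.3% of its exon bases shared with neighbours, mainly Pou2f1, and Sla2, with 23.6% shared with Rab5if, whereas no other member shared more than the 7.98% of Plcg1.

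Several members are neighbours in the genome. Cd3g, Cd3d and Cd3e lie side by side on chromosome 9 (GRCm38, 44969572 to 45009663), Cd8b1 and Cd8a on chromosome 6 (71322788 to 71379171), and Cd5 and Cd6 on chromosome 19 (10718107 to 10830062). RefSeq promoters of GRCm38.p6, each of 300 bases from 250 before to 50 after a start, were at hand for 32 of the 41 members, 44 promoters in all. The promoters of Ptpn6 (chr6:124738660-124738959, minus strand) and Sla2 (chr2:156887172-156887471, minus strand) are shown because both genes were lower with entinostat on both days, and those of Cd3g (chr9:44980382-44980681, minus strand) and Cd3d (chr9:44981536-44981835, plus strand) because these neighbouring chains were called in no comparison. Capitals mark GC boxes (GGGCGG) and RUNX sites (TGTGGT), searched on both strands.
Ptpn6: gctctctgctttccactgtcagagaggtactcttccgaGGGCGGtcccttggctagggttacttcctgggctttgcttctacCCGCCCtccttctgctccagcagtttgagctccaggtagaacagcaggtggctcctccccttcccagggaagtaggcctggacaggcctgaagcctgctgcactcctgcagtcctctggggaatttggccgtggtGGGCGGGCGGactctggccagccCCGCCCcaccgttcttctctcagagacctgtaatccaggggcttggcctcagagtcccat
Sla2: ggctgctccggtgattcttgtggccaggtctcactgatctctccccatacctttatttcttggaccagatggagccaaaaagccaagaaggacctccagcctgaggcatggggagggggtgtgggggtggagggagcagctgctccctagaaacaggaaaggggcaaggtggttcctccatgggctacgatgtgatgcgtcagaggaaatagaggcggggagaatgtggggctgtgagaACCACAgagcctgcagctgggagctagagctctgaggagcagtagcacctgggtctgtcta
Cd3g: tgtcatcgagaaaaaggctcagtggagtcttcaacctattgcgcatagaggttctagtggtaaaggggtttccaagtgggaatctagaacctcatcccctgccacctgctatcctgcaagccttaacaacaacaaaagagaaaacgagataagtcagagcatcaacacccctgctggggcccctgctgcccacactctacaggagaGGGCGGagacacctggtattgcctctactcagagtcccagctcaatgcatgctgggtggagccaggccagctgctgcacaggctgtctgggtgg
Cd3d: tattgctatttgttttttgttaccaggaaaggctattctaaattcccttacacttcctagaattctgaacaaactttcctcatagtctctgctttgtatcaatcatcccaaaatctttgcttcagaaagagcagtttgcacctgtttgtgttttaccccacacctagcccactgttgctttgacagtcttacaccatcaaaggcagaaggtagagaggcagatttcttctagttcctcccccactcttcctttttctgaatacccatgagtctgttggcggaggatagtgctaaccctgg

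The Ptpn6 promoter held 5 GC boxes, those starting at bases 218 and 222 sharing letters, and 61.7% G or C, and that of Sla2 held a RUNX site at base 240 and 57.7% G or C. The Cd3g promoter held a GC box at base 207 and 54.0% G or C. The Cd3d promoter held no match to any of the 5 motifs searched (GC box, RUNX, ETS, TATA and NFAT) and 42.3% G or C. Over all 44 member promoters, 43.2% held a GC box, against 35.7% of the 32851 promoters in the table, and 18.2% held a RUNX site, against 16.8%. An ETS motif (CCGGAAGT) stood in 2.27% of the member promoters, that of Bcl10, and in 3.89% of all promoters. A TATA motif (TATAAA) stood in 11.4% and 13.6% in the same order. The letters of an NFAT motif (TGGAAAA) were in none of the member promoters and in 6.73% of all promoters. These shares describe letters in a window and were not tested against each other.

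**Figure D1:**
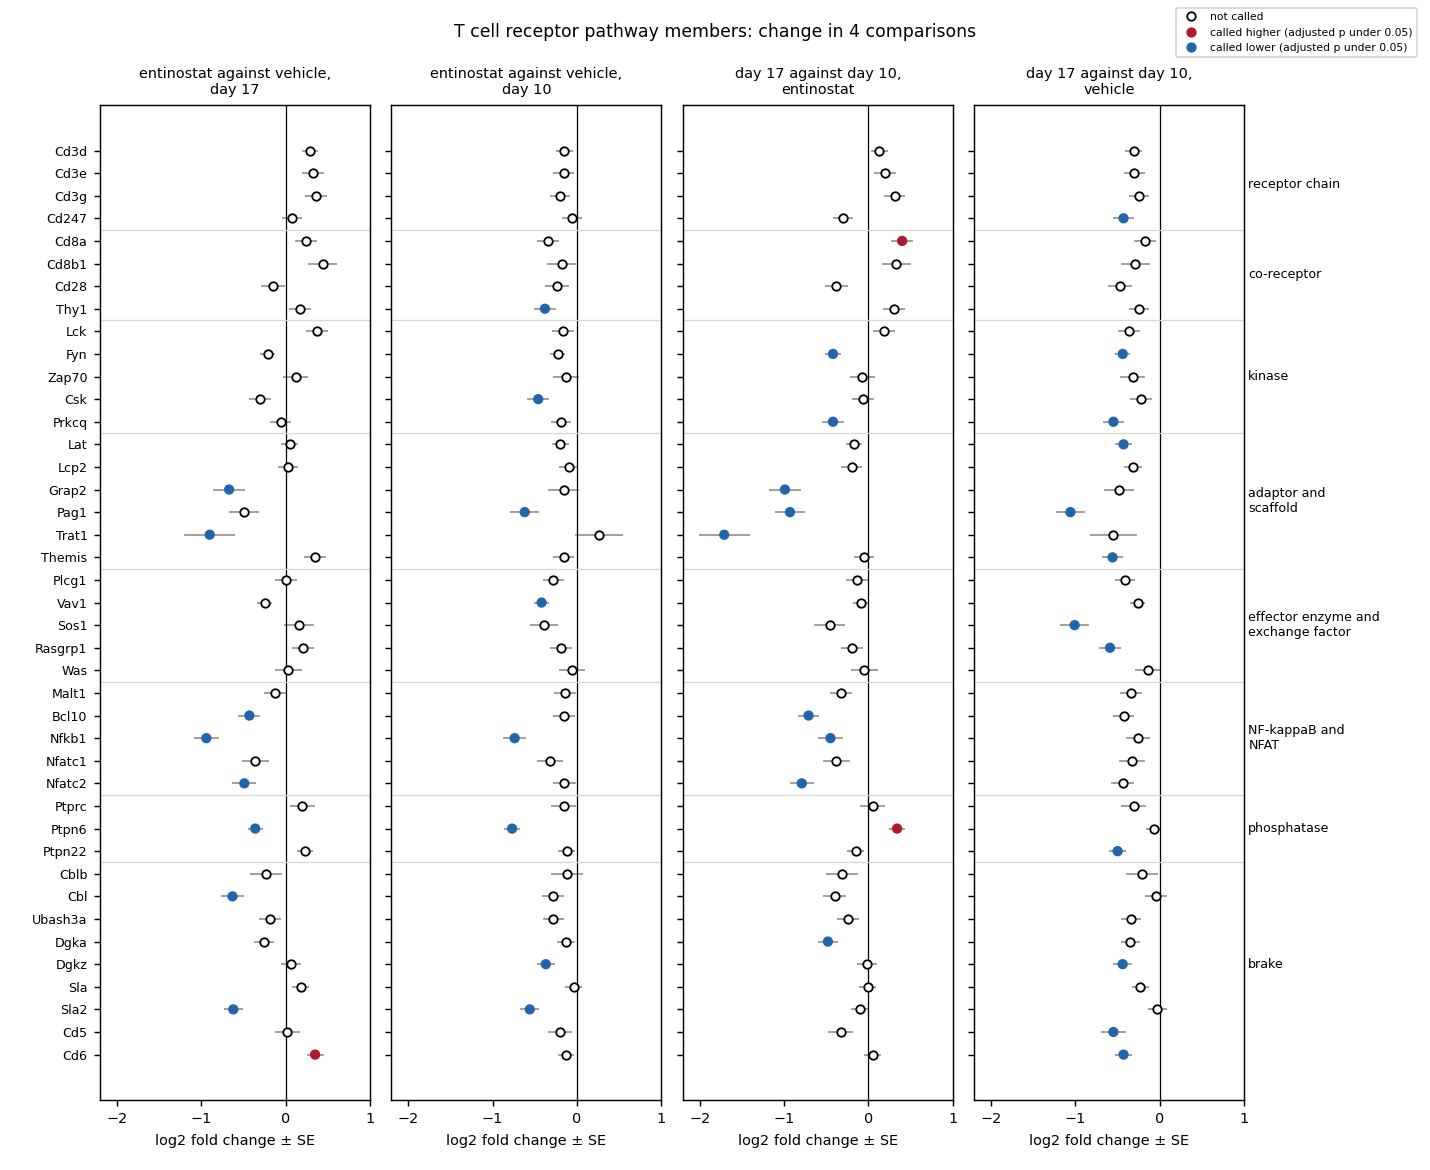
Log2 fold change with its standard error for each of the 41 members in 4 comparisons, grouped by role from receptor chains at the top to brakes at the bottom. Filled points passed the adjusted p of 0.05, red where higher and blue where lower. With entinostat at day 17 the blue points lie among the adaptors, the NF-kappaB and NFAT genes, the phosphatases and the brakes, and in vehicle over time all 41 points lie below 0.

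The first question was what entinostat did at day 17, after 10 days of dosing. With entinostat, 8 members fell and 1 rose, while none of the 4 receptor chains, 4 co-receptors, 5 kinases or 5 effector enzymes was called. The 8 that fell were Nfkb1, Nfatc2 and Bcl10 of the NF-kappaB and NFAT branches, the adaptors Grap2 and Trat1, the phosphatase gene Ptpn6, and the brakes Cbl and Sla2. Cd6, a surface scavenger receptor of T cells counted among the brakes, rose. Of all 17414 genes, 18.3% were called in this comparison, 5.29% higher and 13.0% lower. Among the 8314 genes at least as abundant as Trat1, the lowest member, 3.07% were called higher and 24.2% lower. These are named below as genes at or above Trat1, and they are not matched to the members in level. Of the 41 members, 35 were among the 2000 most abundant genes. The 8 of 41 members that were lower are near the share of the genes at or above Trat1. The median log2 fold change was 0.02 over the members, -0.01 over all genes and -0.23 over genes at or above Trat1.

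Nfkb1 had 59.2, 81.0, 84.6 and 67.2 CPM in the entinostat day 17 libraries, against 157, 113, 138 and 142 CPM in the vehicle day 17 libraries. This gene encodes p105, the precursor of the NF-kappaB subunit p50. The groups did not overlap, with means of 73.0 ± 11.9 CPM for entinostat and 137 ± 18.4 CPM for vehicle (SD, n = 4 each; log2 fold change -0.94 ± 0.15 (SE), adjusted p = 0.000293 by edgeR). Sla2 had 150.2, 173, 123 and 144 CPM in the entinostat day 17 libraries, against 222, 216, 246 and 239 CPM in the vehicle day 17 libraries. Sla2 encodes SLAP-2, an adaptor that brings the ligase CBL to the receptor, and its groups were likewise apart (log2 fold change -0.62 ± 0.11 (SE), adjusted p = 0.000738). Cbl had 121, 77.8, 119 and 127 CPM in the entinostat day 17 libraries, against 184, 151, 186 and 164 CPM in the vehicle day 17 libraries. Cbl encodes that ubiquitin ligase, and all 4 entinostat libraries were below all 4 vehicle libraries, replicate 2 being far below the rest (log2 fold change -0.63 ± 0.14 (SE), adjusted p = 0.00343).

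Ptpn6 had 261, 299, 270.4 and 234 CPM in the entinostat day 17 libraries, against 323, 348, 367 and 330.2 CPM in the vehicle day 17 libraries. Ptpn6 encodes SHP-1, a tyrosine phosphatase that restrains receptor signalling, and its groups did not overlap (log2 fold change -0.36 ± 0.09 (SE), adjusted p = 0.0109). Nfatc2 had 145, 176, 146 and 134 CPM in the entinostat day 17 libraries, against 259.8, 194, 187 and 206 CPM in the vehicle day 17 libraries. Nfatc2 encodes the calcium-controlled factor NFAT1, and every entinostat library was below every vehicle library (log2 fold change -0.49 ± 0.14 (SE), adjusted p = 0.0215). Cd6 had 450.2, 479, 523 and 396 CPM in the entinostat day 17 libraries, against 387, 363, 377 and 314 CPM in the vehicle day 17 libraries. Here the entinostat libraries were the higher ones, with no overlap (log2 fold change 0.35 ± 0.10 (SE), adjusted p = 0.0231).

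Grap2 encodes GADS, which links LAT to SLP-76. Grap2 had 110.0, 104, 94.6 and 79.4 CPM in the entinostat day 17 libraries, against 195, 124, 109 and 188 CPM in the vehicle day 17 libraries. The entinostat values were the more even, and the highest of them lay just above the lowest vehicle value (log2 fold change -0.67 ± 0.19 (SE), adjusted p = 0.0218). Bcl10 had 69.5, 78.9, 68.0 and 76.0 CPM in the entinostat day 17 libraries, against 119.7, 90.8, 110.1 and 74.8 CPM in the vehicle day 17 libraries. BCL10 works with MALT1 in the step that leads to NF-kappaB, and only vehicle replicate 4 reached down to the entinostat values (log2 fold change -0.43 ± 0.13 (SE), adjusted p = 0.0318). Trat1 had 10.3, 13.5, 6.64 and 14.2 CPM in the entinostat day 17 libraries, against 30.2, 21.7, 21.6 and 13.4 CPM in the vehicle day 17 libraries. Trat1 encodes TRIM, an adaptor associated with the receptor, and again vehicle replicate 4 was within the entinostat range (log2 fold change -0.90 ± 0.30 (SE), adjusted p = 0.0431). Nfkb1, Sla2, Cbl, Ptpn6 and Cd6 kept their calls whichever of the 16 libraries was left out. Grap2 lost its call without entinostat replicate 3 or 4 or vehicle replicate 1 or 4, and Nfatc2 without entinostat replicate 1, 3 or 4 or vehicle replicate 1. Bcl10 lost it in 7 of the fits (entinostat replicates 1, 3 and 4 and vehicle replicates 1 and 3 at day 17, entinostat replicate 2 and vehicle replicate 1 at day 10) and Trat1 in all but that without vehicle replicate 4, with adjusted p up to 0.119, 0.131, 0.158 and 0.188 for Grap2, Nfatc2, Bcl10 and Trat1 in that order. Of the 41 members, 8 were without overlap on the lower side, among them Fyn, Pag1 and Vav1, which were not called, and 1 on the higher side. Over all tested genes 13.6% were so on the lower side and 10.8% on the higher side.

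**Figure D2:**
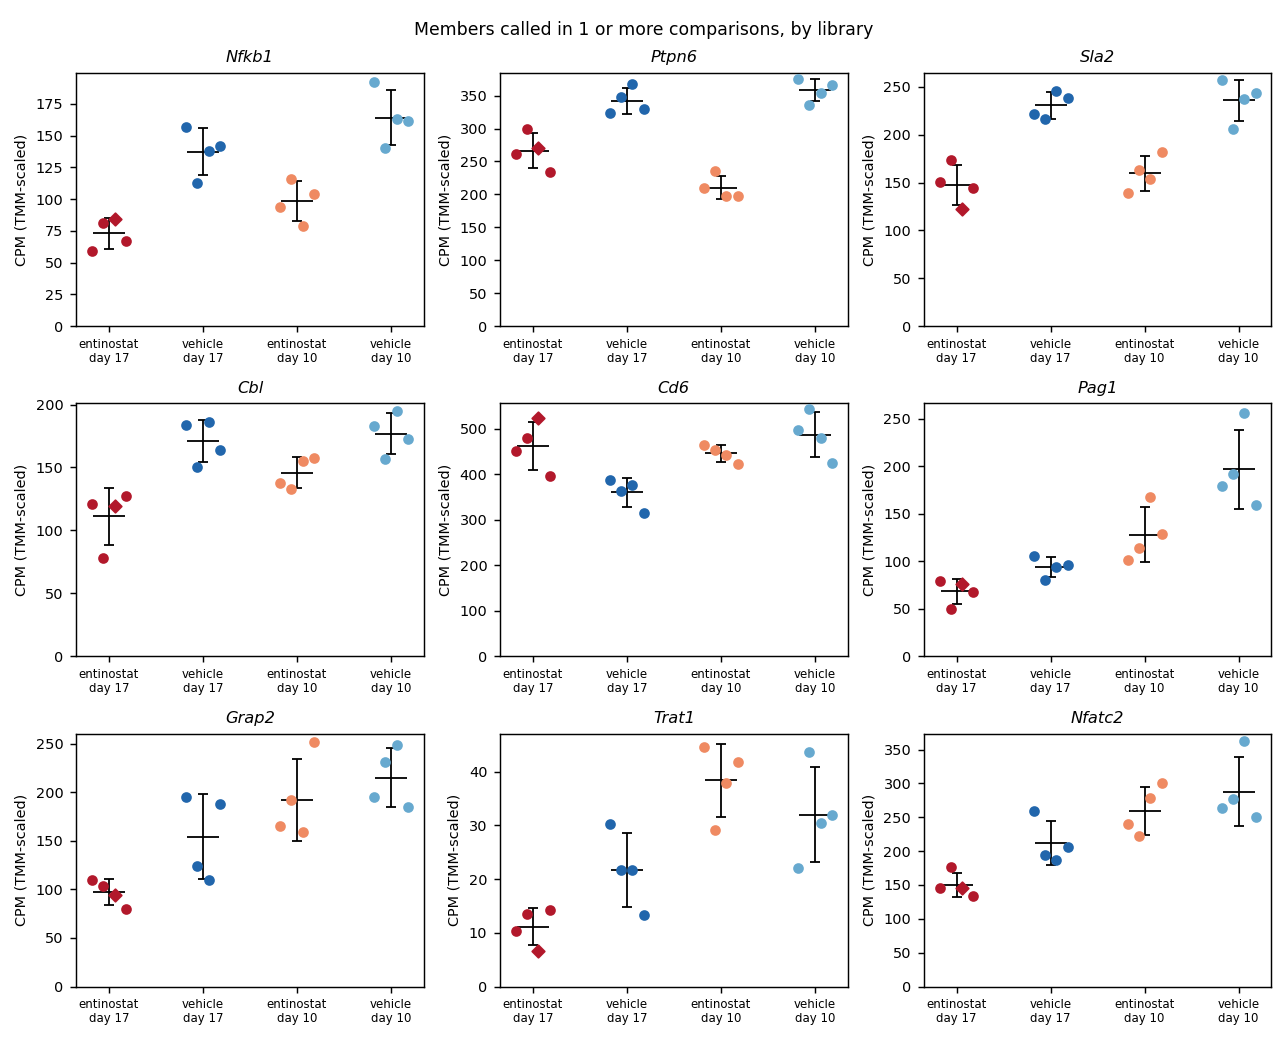
TMM-scaled CPM of 9 members in each library, 4 libraries a group, with group means as lines and SD as bars. The diamond is entinostat day 17 replicate 3, the shallowest library. Nfkb1, Ptpn6 and Sla2 are lower with entinostat than with vehicle on both days without overlap, and Trat1 is lowest with entinostat at day 17.

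The receptor chains and the co-receptor leaned upward with entinostat at day 17, but none passed the test. Cd3e had 405, 424, 614 and 370.4 CPM in the entinostat day 17 libraries, against 308, 362, 366 and 385 CPM in the vehicle day 17 libraries. Replicate 3 with entinostat was far above the other libraries, and without it the groups would still overlap (log2 fold change 0.33 ± 0.13 (SE), adjusted p = 0.088, and 0.20 (adjusted p = 0.233) without that library). Cd8a had 410.0, 440.5, 591 and 328 CPM in the entinostat day 17 libraries, against 349, 348, 368 and 414 CPM in the vehicle day 17 libraries, again highest in replicate 3 (log2 fold change 0.24 ± 0.13 (SE), adjusted p = 0.196, and 0.12 (adjusted p = 0.492) without it). Lck had 565, 551, 834 and 502 CPM in the entinostat day 17 libraries, against 420.5, 465, 483 and 509 CPM in the vehicle day 17 libraries, with the same library on top (log2 fold change 0.37 ± 0.13 (SE), adjusted p = 0.0558, and 0.23 (adjusted p = 0.132) without it). In that library Cd3d stood at 1.34 times, Cd3g at 1.44 times, Cd8b1 at 1.83 times and Ptprc at 1.56 times the mean of the other 3 entinostat libraries. Zap70 in turn stood at 0.761 times and Plcg1 at 0.686 times that mean.

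The log2 fold change of Cd3d was 0.29 ± 0.10 (adjusted p = 0.06), that of Cd3g 0.36 ± 0.13 (adjusted p = 0.057) and that of Cd8b1 0.44 ± 0.17 (adjusted p = 0.0765), all by edgeR. Without entinostat replicate 3 they were 0.22 (adjusted p = 0.128) for Cd3d, 0.26 (adjusted p = 0.135) for Cd3g and 0.22 (adjusted p = 0.227) for Cd8b1, while Themis was then called higher, at 0.43 (adjusted p = 0.0371). Cd247, the zeta chain, had 182, 204, 168 and 132 CPM with entinostat at day 17, against 189, 155, 149.8 and 156 CPM with vehicle at day 17. Its groups overlapped almost fully (log2 fold change 0.08 ± 0.12 (SE), adjusted p = 0.692). Zap70, the kinase that docks on the phosphorylated chains, had 211, 228, 149 and 149.6 CPM with entinostat at day 17, against 219.9, 153, 146 and 170.4 CPM with vehicle at day 17, and Lat, its scaffold substrate, had 198, 216, 174 and 174 CPM with entinostat, against 180.5, 192, 179 and 188 CPM with vehicle. Neither differed beyond the spread (0.12 ± 0.15, adjusted p = 0.621 for Zap70; 0.05 ± 0.10, adjusted p = 0.748 for Lat).

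Whether the receptor genes count as raised depended on the scaling. With library size alone as the scale, 11 members were higher and 3 lower at day 17, where the TMM scale gave 1 and 8. Over all genes the calls were 1356 higher and 1456 lower under library size alone, and 922 and 2268 under TMM. The 11 were Cd3d, Cd3e, Cd3g, Cd8a, Cd8b1, Lck, Themis, Rasgrp1, Ptpn22, Sla and Cd6, and the 3 were Nfkb1, Cbl and Sla2, which were called lower under every scaling tried. The 2 scales differ by a factor for each library, from 0.878 to 1.151, which is the same for all genes of that library. Both the fold changes and the spread within groups can thus differ. The median of all genes was -0.014 under TMM and 0.138 under library size alone. RLE scaling gave 8 higher and 4 lower (1171 and 1704 over all genes), and TMM over genes of at least 5 CPM 9 and 6 (922 and 1806). TMM without a filter gave 0 and 8 (835 and 2327), and DESeq2 10 and 6 (1745 and 1913). Without entinostat replicate 3 the counts were 2 and 4 under TMM, and 8 and 3 under library size alone. All genes then gave 573 and 1611 under TMM, and 880 and 1133 under library size alone. Under library size alone Cd3e stood at 0.48 (adjusted p = 0.0249) with that library and 0.32 (adjusted p = 0.0726) without it, and Lck at 0.52 (adjusted p = 0.015) with it and 0.35 (adjusted p = 0.0384) without it. With the summed CD3 chains as the scale, Nfkb1 was at -1.25 (adjusted p = 0.000147), Sla2 at -0.92 (adjusted p = 0.00147), Cbl at -0.93 (adjusted p = 0.00173) and Ptpn6 at -0.68 (adjusted p = 0.00161), all by edgeR. On that scale Cd6 stood at 0.02 (adjusted p = 0.936), so its call was lost.

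**Figure D3:**
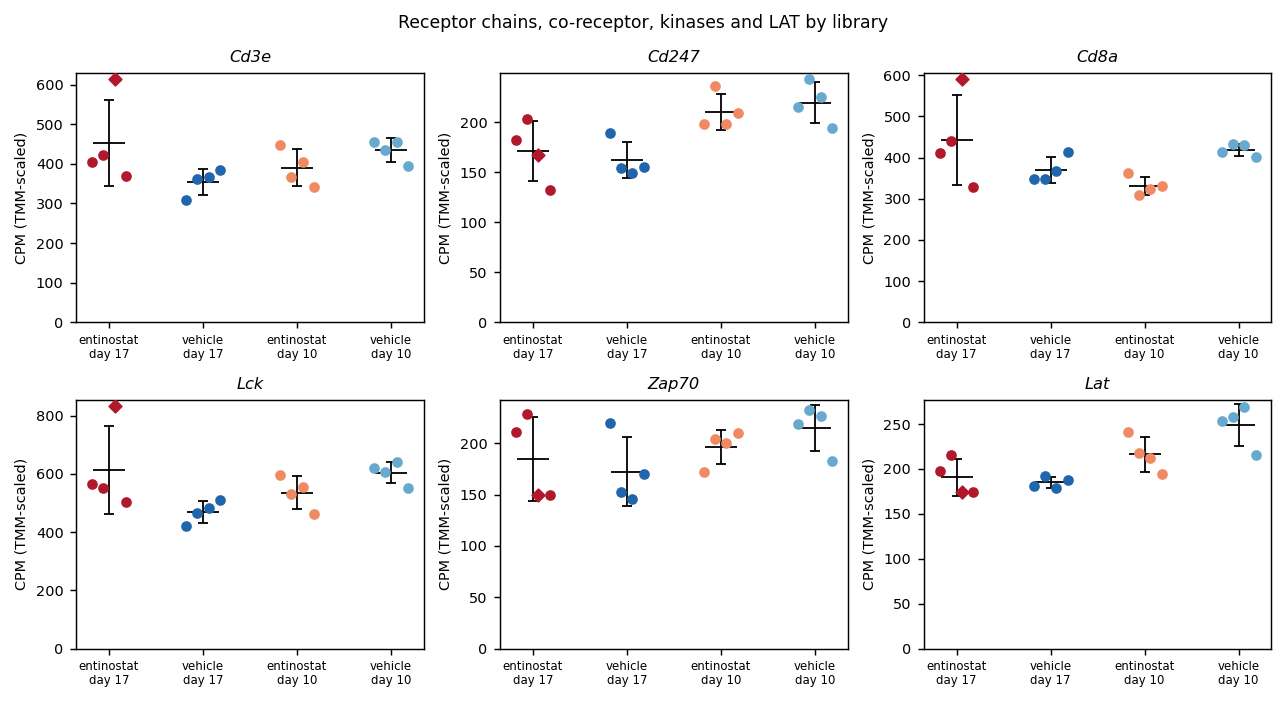
TMM-scaled CPM of Cd3e, Cd247, Cd8a, Lck, Zap70 and Lat in each library, 4 libraries a group, with group means as lines and SD as bars. Entinostat day 17 replicate 3, the diamond, is the highest of all libraries for Cd3e, Cd8a and Lck, at 614, 591 and 834 CPM, and not for Cd247, Zap70 or Lat.

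**Figure D4:**
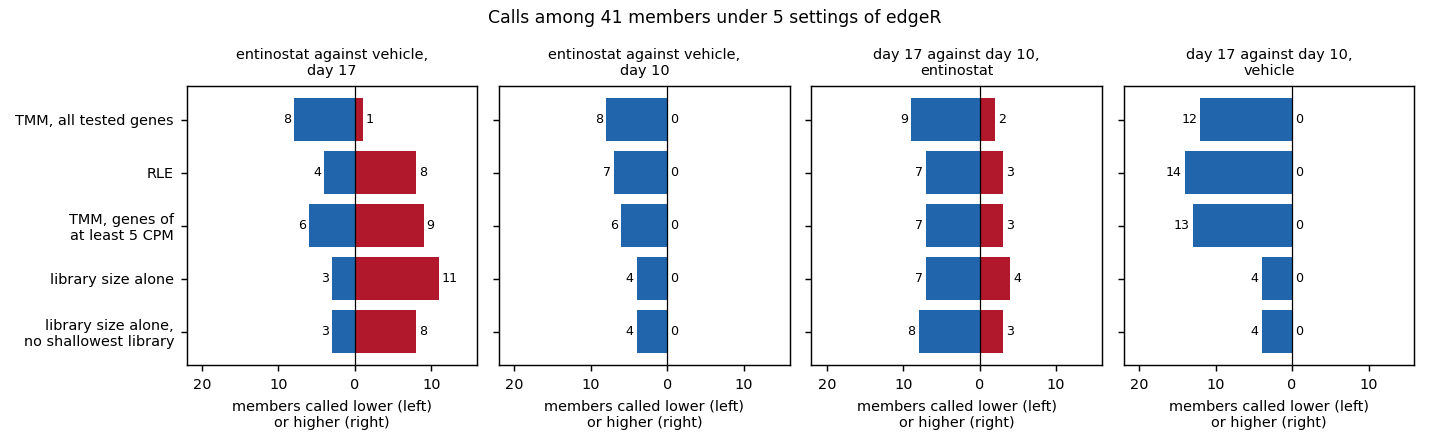
Number of the 41 members called lower (bars to the left) or higher (bars to the right) in 4 comparisons under 5 settings of edgeR. At day 17 the entinostat comparison gives 8 lower and 1 higher under TMM and 3 lower and 11 higher under library size alone. Over all genes it gives 2268 lower and 922 higher under TMM, and 1456 lower and 1356 higher under library size alone. At day 10 and in vehicle over time no setting gives a higher call among the members.

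At day 10, after 3 days of dosing, 8 members fell with entinostat and none rose, against a background of 14.6% of all genes called, 7.63% higher and 6.93% lower. Among genes at or above Trat1, a set not matched to the members in level, 13.4% were called lower, somewhat less than the 8 of 41 members. The members that fell were the phosphatase gene Ptpn6, Nfkb1, the brakes Sla2 and Dgkz, the exchange factor gene Vav1, the kinase gene Csk with its membrane adaptor Pag1, and the surface glycoprotein gene Thy1. The receptor chains were again uncalled, with log2 fold changes of -0.20 to -0.06. Of all 41 members 40 were below 0, Trat1 being the exception. The median of the members was -0.19, the same as over genes at or above Trat1 and lower than the 0.06 over all genes. Under library size alone 23 members were below 0 and 18 above it, with a median of -0.03, and 4 were called, all lower (Vav1, Nfkb1, Ptpn6 and Sla2), while the median of all genes was 0.219. At a minimum count of 50 and with the receptor-gene covariate 4 were called as well, again all lower. Over all genes library size alone called 12.1%, 1596 higher and 504 lower, the minimum count of 50 called 11.7% and the covariate 8.75%.

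Ptpn6 had 209, 235, 198 and 198 CPM in the entinostat day 10 libraries, against 375, 336, 354 and 367 CPM in the vehicle day 10 libraries. No vehicle library came near the entinostat libraries, with means of 210.0 ± 17.6 CPM for entinostat and 358 ± 16.9 CPM for vehicle (SD, n = 4 each; log2 fold change -0.77 ± 0.09 (SE), adjusted p = 9.46e-05 by edgeR). Nfkb1 had 94.1, 116, 78.9 and 104 CPM in the entinostat day 10 libraries, against 192, 140.2, 163 and 161 CPM in the vehicle day 10 libraries, without overlap (log2 fold change -0.74 ± 0.14 (SE), adjusted p = 0.00392). Sla2 had 139, 164, 154 and 182 CPM in the entinostat day 10 libraries, against 257, 206, 237 and 244 CPM in the vehicle day 10 libraries, also apart (log2 fold change -0.56 ± 0.11 (SE), adjusted p = 0.00405). In vehicle replicate 2, whose plasmacytoid marker sum of 1260 CPM was the lowest with vehicle, these 3 genes stood at 336, 140.2 and 206 CPM. Each was the lowest vehicle value at day 10. The other members called at day 10 were not lowest there, with Vav1 at 375, Csk at 198, Pag1 at 192, Dgkz at 409 and Thy1 at 174 CPM. Csk was at its highest vehicle value of day 10. A link of the members with the marker sum was not tested.

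Vav1 encodes an exchange factor for RAC that acts on the cytoskeleton and calcium. Vav1 had 274, 327, 282 and 270.4 CPM in the entinostat day 10 libraries, against 379, 375, 424 and 361 CPM in the vehicle day 10 libraries. The groups did not overlap (log2 fold change -0.42 ± 0.09 (SE), adjusted p = 0.0089). Csk had 107, 133, 140.0 and 155 CPM in the entinostat day 10 libraries, against 177, 198, 178 and 185 CPM in the vehicle day 10 libraries. CSK adds the phosphate that closes LCK, and all entinostat values were below all vehicle values (log2 fold change -0.46 ± 0.13 (SE), adjusted p = 0.0278). Pag1 had 102, 114, 168 and 129 CPM in the entinostat day 10 libraries, against 179.7, 192, 256 and 159 CPM in the vehicle day 10 libraries. Pag1 encodes the membrane anchor of CSK, and only entinostat replicate 3 lay within the vehicle range (log2 fold change -0.62 ± 0.17 (SE), adjusted p = 0.0252).

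Dgkz encodes a kinase that removes diacylglycerol, and Thy1 a surface glycoprotein of T cells. Dgkz had 294, 324, 266 and 307 CPM in the entinostat day 10 libraries, against 366, 409, 417 and 346 CPM in the vehicle day 10 libraries, and Thy1 had 108, 124, 128 and 154 CPM with entinostat, against 164, 174, 179 and 156 CPM with vehicle. Both were without overlap (-0.37 ± 0.11, adjusted p = 0.0411 for Dgkz; -0.38 ± 0.13, adjusted p = 0.0472 for Thy1). With the replicate number as a block these calls were lost (adjusted p = 0.0582 for Dgkz and 0.084 for Thy1), which left 6 members called. That fit called 8.96% of all genes, and a block within each day 6.66%. The main fit, which takes no account of a possible pairing, called 14.6%. Ptpn6, Nfkb1, Sla2 and Vav1 kept their calls whichever library was left out, whereas Pag1 lost its call in 5 of 16 such fits, Csk in 7, Dgkz in 12 and Thy1 in 15, all but that without entinostat day 10 replicate 4. Without any single one of entinostat replicates 1 and 2 or vehicle replicates 1, 2 and 3, 4 members were called. Without entinostat replicate 3, 5 were. Of all genes, 5.07% to 8.08% were called in these fits. On the scale of the summed CD3 chains Ptpn6 stood at -0.6 (adjusted p = 0.0138), and Nfkb1 at -0.56 (adjusted p = 0.0606), Sla2 at -0.38 (adjusted p = 0.196) and Vav1 at -0.24 (adjusted p = 0.301) no longer passed. Of the 41 members 10 were lower without overlap, as were 12.4% of all genes.

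Of the fixed receptor genes at day 10, Cd8a came nearest to a call. Cd8a had 362, 309, 324 and 330.5 CPM in the entinostat day 10 libraries, against 413, 432, 429.5 and 401 CPM in the vehicle day 10 libraries, all entinostat values below all vehicle values (log2 fold change -0.34 ± 0.13 (SE), adjusted p = 0.0757), and it passed when entinostat day 17 replicate 3 was left out, at -0.31 (adjusted p = 0.0398). Cd3e had 448, 367, 406 and 342 CPM in the entinostat day 10 libraries, against 456, 436, 456 and 394 CPM in the vehicle day 10 libraries, with overlap (-0.16 ± 0.13, adjusted p = 0.408). Lck had 596, 529.5, 556 and 460.4 CPM in the entinostat day 10 libraries, against 619, 606, 639 and 552 CPM in the vehicle day 10 libraries, with overlap too (-0.17 ± 0.13, adjusted p = 0.349). Cd247, Zap70 and Lat stood at -0.06 ± 0.12, adjusted p = 0.739, at -0.13 ± 0.15, adjusted p = 0.542 and at -0.20 ± 0.10, adjusted p = 0.148 on the log2 scale by edgeR, none of them beyond the spread.

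**Figure D5:**
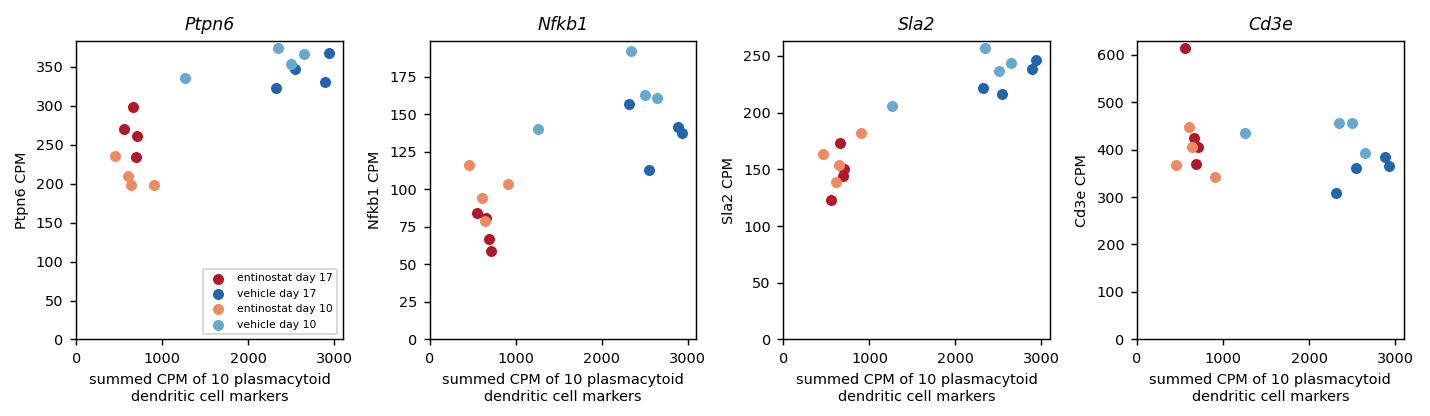
CPM of Ptpn6, Nfkb1, Sla2 and Cd3e against the summed CPM of 10 plasmacytoid dendritic cell markers, 1 point a library, coloured by group. The entinostat libraries lie at 454.4 to 906.8 CPM on the horizontal axis and the vehicle libraries at 1260 to 2934, and for Ptpn6, Nfkb1 and Sla2 the vehicle libraries of a day are all above the entinostat libraries of that day.

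Nfkb1, Ptpn6 and Sla2 were called lower with entinostat on both days, 3 of the 8 lower calls of each day. The entinostat effect itself was compared between days by an interaction term. DESeq2 called 8 members, where it called 3.23% of all genes, and limma-voom 1, where it called 1.4%. By edgeR no member was called, against 0.471% of all genes. An unadjusted p under 0.05 by edgeR was seen for 15 of 41 members. The share over all genes was not counted, so nothing is read from this number. The members with the smallest p were Cd6, at 0.48 ± 0.14 (adjusted p = 0.143), Cd8a at 0.58 ± 0.18 (adjusted p = 0.162) and Ptpn6 at 0.41 ± 0.13 (adjusted p = 0.169), where a positive value means a higher day 17 effect than day 10 effect. The median over the members was 0.16, against -0.20 over all genes and -0.07 over genes at or above Trat1. DESeq2 called Cd3g, Cd8a, Thy1, Lck, Themis, Ptpn6, Dgkz and Cd6, all positive, and limma-voom called Thy1.

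The next comparison set day 17 against day 10 within entinostat. Here 9 members fell and 2 rose, while over all genes 13.7% were called, 3.26% higher and 10.5% lower. Among genes at or above Trat1 20.6% were lower. The 9 were the adaptors Trat1, Grap2 and Pag1, the NF-kappaB and NFAT genes Nfatc2, Bcl10 and Nfkb1, the kinase genes Fyn and Prkcq, and the diacylglycerol kinase gene Dgka. Ptpn6 and Cd8a rose. The median of the members was -0.17, against 0.03 over all genes and -0.19 over genes at or above Trat1.

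Trat1 had 10.3, 13.5, 6.64 and 14.2 CPM with entinostat at day 17, against 44.6, 29.1, 37.9 and 41.8 CPM with entinostat at day 10. The highest day 17 value was below the lowest at day 10 (log2 fold change -1.71 ± 0.30 (SE), adjusted p = 0.000924 by edgeR). For Grap2 (-0.99 ± 0.19, adjusted p = 0.00204), Nfatc2 (-0.79 ± 0.14, adjusted p = 0.00108) and Bcl10 (-0.71 ± 0.13, adjusted p = 0.00165) the days were likewise apart within entinostat, at 79.4 to 110.0, 134 to 176 and 68.0 to 78.9 CPM at day 17, against 159 to 252, 222 to 300.2 and 106 to 131 CPM at day 10. Pag1 had 78.8, 49.8, 76.3 and 68.2 CPM at day 17, against 102, 114, 168 and 129 CPM at day 10 (log2 fold change -0.93 ± 0.18 (SE), adjusted p = 0.00214). Fyn, the SRC-family kinase gene next to Lck in function, had 335, 368, 362 and 315 CPM at day 17, against 476, 479, 451 and 434 CPM at day 10, without overlap (log2 fold change -0.42 ± 0.09 (SE), adjusted p = 0.00424). Dgka (-0.48 ± 0.12, adjusted p = 0.00961) was without overlap as well.

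Ptpn6 had 261, 299, 270.4 and 234 CPM with entinostat at day 17, against 209, 235, 198 and 198 CPM with entinostat at day 10. Day 17 replicate 4 lay just below day 10 replicate 2, so the groups touched (log2 fold change 0.34 ± 0.09 (SE), adjusted p = 0.0186), and the call was lost without day 10 replicate 3 or 4 (adjusted p up to 0.0608). Cd8a had 410.0, 440.5, 591 and 328 CPM at day 17, against 362, 309, 324 and 330.5 CPM at day 10 (log2 fold change 0.40 ± 0.13 (SE), adjusted p = 0.046), a call lost in 15 of the 16 fits that left out a library, entinostat day 17 replicate 3 among them. Prkcq (-0.42 ± 0.13, adjusted p = 0.0338) lost its call without replicate 3 or 4 at day 17 or replicate 1 or 2 at day 10. Nfkb1 (-0.45 ± 0.15, adjusted p = 0.0499) lost it without replicate 1 or 4 at day 17, replicate 1, 2 or 4 at day 10, or vehicle day 10 replicate 3. The other 7 falls held in all 16 fits. Cd3e, Cd247, Lck, Zap70 and Lat were not called, at 0.20 ± 0.13 (adjusted p = 0.378), -0.30 ± 0.12 (adjusted p = 0.128), 0.18 ± 0.13 (adjusted p = 0.411), -0.07 ± 0.15 (adjusted p = 0.814) and -0.17 ± 0.10 (adjusted p = 0.279) in that order. With library size alone the split was 4 higher and 7 lower, with RLE scaling 3 and 7, and without a filter 0 and 10. Over all genes the same fits gave 913 higher and 1195 lower, 731 and 1516, and 492 and 1780. Of the 41 members 11 were lower without overlap, against 12.5% of all genes.

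Within vehicle, 12 members were lower at day 17 than at day 10 and none was higher, and all 41 had a log2 fold change below 0. Over all genes 5.52% were called, 1.89% higher and 3.63% lower. Among genes at or above Trat1 7.48% were lower, a smaller share than the 12 of 41 members. That set is not matched to the members in level, and the list as such was not tested. The 12 were Pag1 and Sos1, Fyn and Prkcq, Ptpn22, the adaptors Lat and Themis, the RAS exchange factor gene Rasgrp1, the brakes Cd5, Cd6 and Dgkz, and the zeta chain gene Cd247. The median of the members was -0.34, against 0.13 over all genes and -0.13 over genes at or above Trat1. Lower without overlap were 20 of the 41 members, against 8.77% of all genes. In the same comparison 3 of 8 fibroblast and endothelial markers were called higher, Col3a1 (5.59 ± 1.23, adjusted p = 0.016), Col1a2 (5.13 ± 1.27, adjusted p = 0.0278) and Pdgfrb (2.94 ± 0.85, adjusted p = 0.049). The sum of the 8 was 331 to 1629 CPM with vehicle at day 17 and 172 to 484 CPM with vehicle at day 10, and its part in the lower levels of the members was not tested.

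Pag1 had 106, 80.7, 94.5 and 95.7 CPM with vehicle at day 17, against 179.7, 192, 256 and 159 CPM with vehicle at day 10, without overlap (log2 fold change -1.06 ± 0.17 (SE), adjusted p = 0.0035 by edgeR). Sos1, which encodes an exchange factor that loads RAS, had 80.3, 39.2, 55.3 and 63.1 CPM at day 17, against 117, 118, 141 and 104 CPM at day 10. All day 17 values were below all day 10 values, replicate 2 being the lowest (log2 fold change -1.01 ± 0.17 (SE), adjusted p = 0.00403). Ptpn22, which encodes a phosphatase that acts on LCK and ZAP-70, had 338, 348, 323 and 381 CPM at day 17, against 512, 518, 516 and 425 CPM at day 10 (log2 fold change -0.50 ± 0.10 (SE), adjusted p = 0.0106). These 3 kept their calls whichever library was left out.

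Fyn had 394, 378, 419.5 and 397 CPM with vehicle at day 17, against 553, 526, 605 and 472 CPM with vehicle at day 10, without overlap (log2 fold change -0.44 ± 0.09 (SE), adjusted p = 0.00995). Themis, an adaptor first known from thymocytes, had 273, 192, 224 and 268 CPM at day 17, against 354, 359.5, 401 and 301 CPM at day 10, also apart (log2 fold change -0.56 ± 0.12 (SE), adjusted p = 0.016). Rasgrp1 (-0.59 ± 0.13, adjusted p = 0.0173), Prkcq (-0.55 ± 0.12, adjusted p = 0.0181) and Lat (-0.43 ± 0.10, adjusted p = 0.0183) were without overlap as well, at 222 to 321, 239.9 to 289 and 179 to 192 CPM at day 17, against 363 to 477, 336 to 412 and 215 to 268 CPM at day 10. Cd6 was at -0.43 ± 0.10, adjusted p = 0.0216, Dgkz at -0.44 ± 0.11, adjusted p = 0.0331, Cd5 at -0.55 ± 0.15, adjusted p = 0.0366 and Cd247 at -0.43 ± 0.12, adjusted p = 0.0449 on the log2 scale. Cd3e, Cd8a, Lck and Zap70 did not pass, at -0.30 ± 0.13, adjusted p = 0.169, -0.18 ± 0.13, adjusted p = 0.367, -0.36 ± 0.13, adjusted p = 0.0956 and -0.32 ± 0.15, adjusted p = 0.182.

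The count of 12 in vehicle moved with the libraries and the scale. It was 3 without day 10 replicate 3, 6 without day 10 replicate 2 or day 17 replicate 2, 20 without day 10 replicate 4, 21 without day 17 replicate 1 and, leaving out entinostat day 17 replicate 3, 18, with Lck, Cd3d, Cd28, Plcg1, Bcl10 and Ubash3a then added (Lck at -0.37 (adjusted p = 0.0214)). Without day 10 replicate 3 all calls but those of Pag1, Sos1 and Ptpn22 were lost. Cd247, Prkcq, Dgkz and Cd5 were lost without day 10 replicate 2 and also without day 17 replicate 2, Lat and Cd6 without day 10 replicate 2, and Themis and Rasgrp1 without day 17 replicate 2. Over all genes 1.17% were called without day 10 replicate 3 and 14.9% without day 17 replicate 1. The shares were 2.03% without day 10 replicate 2, 1.89% without day 17 replicate 2 and 9.35% without day 10 replicate 4. Without entinostat day 17 replicate 3 the share was 6.81%. Under library size alone 4 members were lower, Pag1, Sos1, Fyn and Rasgrp1, and the median of all genes was then 0.265. Of all genes 291 were then called higher and 199 lower. On the scale of the CD3 chains no member passed, Pag1 standing at -0.76 (adjusted p = 0.0589) and Sos1 at -0.7 (adjusted p = 0.0711). Fyn, Pag1 and Prkcq were lower over time in both treatments, 3 of the 9 lower calls with entinostat and 3 of the 12 with vehicle.

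In none of the 4 pairwise comparisons were 16 of the members called. They were Cd3d, Cd3e, Cd3g, Cd8b1, Cd28, Lck, Zap70, Lcp2, Plcg1, Was, Malt1, Nfatc1, Ptprc, Cblb, Ubash3a and Sla, which include all CD3 chains but zeta, the CD8 beta chain and the kinases LCK and ZAP-70. Spread within groups differed between members and days. With entinostat at day 17, the coefficient of variation of Cd8b1 was 35.1% and that of Nfatc1 31.5%, against 13.1% and 1.48% with entinostat at day 10. Cblb, the ligase gene related to Cbl, had 510.4, 476, 425 and 902 CPM with vehicle at day 17, its replicate 4 being far above the rest, and 605 to 716 CPM with vehicle at day 10. Malt1 had 300.3, 253, 298 and 446 CPM with vehicle at day 17, with the same library highest, and 377 to 447 CPM with vehicle at day 10. Ptprc, which encodes CD45, was the member with the highest CPM, at 1237 ± 313 with entinostat at day 17, 1074 ± 163 with vehicle at day 17, 1187 ± 144 with entinostat at day 10 and 1329 ± 86.4 with vehicle at day 10 (SD, n = 4 each).

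Beyond the members, 80 other genes of the same pathway were read from a list, all present and all tested. With entinostat at day 17, 13.0% of all genes and 24.2% of those at or above Trat1 were lower. Of the 80, 6 were higher and 18 lower under library size alone, and 4 and 21 under RLE scaling. Over genes of at least 5 CPM the split was 4 and 23. In the main fit 26 of the 80 were lower and 1 was higher, with a median of -0.20. They included Orai2 (-1.27 ± 0.12, adjusted p = 1.75e-06), a calcium channel gene, Pik3r1 (-1.17 ± 0.12, adjusted p = 2.58e-06), the regulatory subunit of PI3-kinase, Prkcd (-1.17 ± 0.12), Prkca (-0.92 ± 0.11), the adaptor gene Tespa1 (-1.15 ± 0.14) and Cd4 (-2.75 ± 0.33), whose protein marks cells that the sort left out. Akt1, a kinase gene of the PI3-kinase branch, was the one higher (0.57 ± 0.13, adjusted p = 0.00615). At day 10, 19 were lower with entinostat and none higher, with a median of -0.24. Of all genes 6.93% were lower, and of those at or above Trat1 13.4%. Under library size alone the split was 2 higher and 8 lower, where all genes gave 1596 and 504. With the replicate number as a block 15 were lower, and 13 with the block within each day. Those fits called 8.96% and 6.66% of all genes. Leaving out entinostat or vehicle day 10 replicate 3 left 10, and vehicle day 10 replicate 2 left 11. Leaving out entinostat or vehicle day 10 replicate 1 left 12. These fits without a library called 5.07% to 6.55% of all genes. The limma-voom fit called 41, 37 of them lower, where it called 38.7% of all genes, 3576 higher and 3170 lower. The 19 included Orai2 (-0.68 ± 0.11), Cd4 (-1.66 ± 0.30), the NF-kappaB kinase gene Chuk (-0.54 ± 0.10), Prkcd (-0.58 ± 0.11), Nfkb2 (-0.50 ± 0.11) and Stim2 (-0.64 ± 0.14).

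Over time with entinostat, 29 of the 80 were lower and 1 higher, median -0.28. Of all genes 10.5% were lower, and of those at or above Trat1 20.6%. The split was 1 higher and 15 lower under library size alone, and 1 and 18 in a fit of the compared groups alone. Over all genes the same fits gave 913 and 1195, and 724 and 1302. The lower ones included Pik3r1 (-1.12 ± 0.12), Tespa1 (-1.16 ± 0.14), Orai2 (-0.92 ± 0.12) and Slamf6 (-0.82 ± 0.12), and Akt1 was the higher one (0.47 ± 0.13). Over time with vehicle, 9 were lower and none higher, median -0.29. Of all genes 3.63% were lower, and of those at or above Trat1 7.48%. Under library size alone 1 was higher and 3 lower, where all genes gave 291 and 199. DESeq2 called 27, where it called 12.2% of all genes, and limma-voom 39, where it called 16.1%. The count was 2 without day 10 replicate 3, 5 without day 17 replicate 2 or 3 and 14 without day 17 replicate 4. It was 23 without day 10 replicate 4 and 29 without day 17 replicate 1. Of all genes, 1.17% to 14.9% were called in these fits. Leaving out an entinostat library gave 22 for day 17 replicate 2, 18 for day 17 replicate 3, 19 for day 17 replicate 4 and 22 for day 10 replicate 4. Over all genes the shares called were 6.95%, 6.81%, 6.32% and 10.1% in that order, against 5.52% in the main fit. The 9 included Icos (-0.68 ± 0.12), Nfatc3 (-0.59 ± 0.10) and Sh2d2a (-0.47 ± 0.10). The entinostat effect differed between days for 2 of the 80 without the replicate block, for 1 with it and for none with the block within each day. Over all genes the same fits called 0.471%, 0.224% and 0.195%. Akt1 had 212, 235, 207 and 238 CPM with entinostat and 168, 147, 161 and 127 CPM with vehicle at day 17, and 130.5, 218, 143 and 154 CPM with entinostat and 217, 219.5, 227 and 216 CPM with vehicle at day 10. At day 17 the entinostat libraries were all above the vehicle libraries, and at day 10 the order was turned, with entinostat replicate 2 reaching the vehicle values (difference log2 fold change 1.01 ± 0.19 (SE), adjusted p = 0.0279). Pik3r1 had 146, 144, 134 and 126 CPM with entinostat and 340.0, 295, 260.4 and 348 CPM with vehicle at day 17, and 273, 319, 297 and 311 CPM with entinostat and 394, 439.6, 440.4 and 328 CPM with vehicle at day 10, lower with entinostat on both days and more so at day 17 (difference log2 fold change -0.76 ± 0.16 (SE), adjusted p = 0.0455). The Akt1 difference lost its call without entinostat day 10 replicate 1 or 3 or vehicle day 10 replicate 3, and that of Pik3r1 in 15 of the 16 fits that left out a library. With the block the Akt1 difference had an adjusted p of 0.0394 and that of Pik3r1 0.0711, and with the block within each day 0.0576 and 0.0869.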

How the data were processed

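Per the labels, RNA of sorted CD8 T cells was made into cDNA with the SMART-seq v4 kit and into libraries with Nextera XT, which mark neither strand nor single molecules. The authors deposited unscaled whole-number counts for 24028 genes. STAR and mm10 are named in the submitters' processing notes, and not given in the sources used here are the counter, its annotation and any removal of duplicates. Groups, days, dose and replicate numbers came from the labels, 4 groups of 4 libraries. Total counts ran from 554593 to 6975904, and precision grows with them. Actb had 1618 to 3265 counts, a far narrower range, so its CPM was not independent of depth. From the shallowest to the deepest library, counts of Cd3e went from 370 to 2045, of Lck from 503 to 2795 and of Ptprc from 1022 to 6056. Those of Cd247 went from 101 to 1259 and of Zap70 from 90 to 1462. A link of these or other genes with depth was not tested. Libraries of 1 group always differed by more than counting noise (chi-square over its degrees of freedom at least 2.96). The 3 rows with a gene ID but no symbol were kept.

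The filter was filterByExpr (minimum count 10), and 17414 genes passed. The tests were made with edgeR 4.0.16 in R 4.3.3 (quasi-likelihood, TMM, 1 mean per group over 16 libraries), on 12 residual degrees of freedom and with a common coefficient of variation of 0.38. P-values were adjusted by Benjamini-Hochberg over all tested genes in each of 5 comparisons, at 0.05. Errors are SE for log2 fold changes and SD over 4 libraries for CPM. The script was tested on simulated data. Other fits used limma-voom 3.58.1 with quality weights, DESeq2 1.42.0, RLE, library size alone, a minimum count of 50, no filter, a mean of at least 5 CPM, a fit of the compared groups only, receptor-gene reads as a covariate, replicate blocks and leaving out each library. Scaling to the summed CD3 chains, and 2 settings without entinostat day 17 replicate 3, were added after seeing the data.

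Whether equal replicate numbers pair the libraries was judged from how their deviations from group means correlated over the 8314 genes at least as high as the lowest member. For numbers 1 to 4, entinostat against vehicle at day 10 gave 0.206, 0.331, 0.241 and 0.368. Vehicle number 3 was the best match of entinostat number 1, and the other numbers matched their own. Over all 17414 genes the values were 0.18, 0.033, 0.114 and 0.057, and vehicle number 1 best matched entinostat numbers 1, 2 and 3. A pairing at day 10 is thus possible but not settled. The main fit has no pairing, so its day 10 p-values take no account of one. In no other comparison were all 4 over 0.1.

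Values per library and full statistics went to a fixed set (Cd3e, Cd247, Cd8a, Lck, Zap70, Lat) and to the called members, at most 8 of smallest p in each comparison. Of the pathway list, up to 6 called genes of smallest p were named. Other members named with values were chosen after their values were seen. Members and lists were chosen with earlier results of these data known. Promoters came from RefSeq tables of GRCm38.p6. Gene positions, merged exon lengths and overlaps came from the GENCODE annotation of GRCm38. The sums of the other marker lists, with entinostat and then vehicle at day 17, and with entinostat and then vehicle at day 10, were as follows. The 6 B cell markers summed to 40.1 to 81.3, 28.3 to 75.1, 17.5 to 68.0 and 21.4 to 31.9 CPM. The 5 natural killer markers, with Klra4 at 0 in all libraries, summed to 40.7 to 100.4, 19.6 to 43.0, 17.1 to 41.7 and 18.6 to 28.4 CPM. The 4 CD4 T cell markers summed to 41.4 to 140.2, 130.0 to 175, 91.1 to 139 and 116 to 187 CPM. The 3 gamma delta T cell markers in the table summed to 6.64 to 13.2, 8.12 to 41.5, 34.8 to 117 and 35.8 to 135 CPM. The 6 epithelial and tumour markers summed to 106 to 209, 209 to 399, 143 to 178 and 182 to 306 CPM. The 8 fibroblast and endothelial markers summed to 225 to 523, 331 to 1629, 144 to 509.7 and 172 to 484 CPM.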

Additional observations from a re-analysis of the deposited data

Results flagged for a closer look

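In 6 of the 164 combinations of member and group, a library stood far from the other 3 of its group by Dixon's test, where chance gives about 5% of them. Cbl was lowest in entinostat day 17 replicate 2, at 77.8 CPM against 119 to 127 in the others. Cd247 was highest in vehicle day 17 replicate 1, at 189 CPM against 150.0 to 156, and Ubash3a was highest in the same library, at 230.0 CPM against 196 to 199. Was was highest in vehicle day 10 replicate 3, at 93.5 CPM against 74.4 to 75.8. Ptpn22 was lowest in vehicle day 10 replicate 4, at 425 CPM against 511 to 518, and Sla was lowest in the same library, at 397 CPM against 443 to 452. The call of Cbl with entinostat at day 17 held without replicate 2.

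The entinostat effect differed between days, by the interaction term in edgeR, for Akt1 (log2 difference 1.01 ± 0.19 SE, adjusted p = 0.0279) and Pik3r1 (-0.76 ± 0.16 SE, adjusted p = 0.0455) among the other pathway genes. With the replicate number as a block within each day neither was called (adjusted p = 0.0576 for Akt1 and 0.0869 for Pik3r1), and with a plain block only Akt1 was (adjusted p = 0.0394, against 0.0711 for Pik3r1).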

How the results depend on the processing

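The count of members called with entinostat at day 17 was 9, and 16 with DESeq2, 14 under library size alone, 14 at a minimum count of 50, 15 over genes of at least 5 CPM and 5 in a fit of the compared groups alone, with 6 to 13 when a library was left out. At day 10 it was 8, and 15 with limma-voom, 4 under library size alone, 4 at a minimum count of 50, 5 in the compared groups alone and 4 with the receptor-gene covariate, with 4 to 8 when a library was left out. Over all genes the shares called at day 17 were 18.3% in the main fit, 21% with DESeq2 and 16.1% under library size alone. They were 21.8% at a minimum count of 50, 20.5% over genes of at least 5 CPM and 14.7% in the compared groups alone. At day 10 the shares were 14.6% in the main fit, 38.7% with limma-voom and 12.1% under library size alone. They were 11.7% at a minimum count of 50, 10.6% in the compared groups alone and 8.75% with the covariate. Over time with entinostat the count of members was 11, and 8 to 13 when a library was left out. Over time with vehicle it was 12, and 20 with DESeq2, 26 with limma-voom and 4 under library size alone, with 3 to 21 when a library was left out. For the difference of effects it was 0, with 8 by DESeq2, 1 by limma-voom and 1 at a minimum count of 50. It was 0 whichever library was left out. Over all genes 0.471% were called for the difference in the main fit, 3.23% by DESeq2, 1.4% by limma-voom and 2.5% at that minimum count. With the replicate number as a block the counts were 7 at day 17, 6 at day 10, 10 over time with entinostat, 12 over time with vehicle and 0 for the difference. The block within each day gave 8 at day 17. Over all genes the plain block called 15.6% at day 17, 8.96% at day 10 and 12.3% over time with entinostat. It called 4.93% over time with vehicle and 0.224% for the difference, and the block within each day called 14.1% at day 17. Over time with vehicle the main fit called 5.52% of all genes, DESeq2 12.2%, limma-voom 16.1% and library size alone 2.81%. When a library was left out, 10.8% to 20.3% of all genes were called at day 17 and 5.07% to 23% at day 10. Over time the same fits called 9.87% to 15.6% with entinostat and 1.17% to 14.9% with vehicle. The cause of these moves was not tested.

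Directions turned for genes that were not called. On the scale of the CD3 chains at day 17, Cd247 stood at -0.25, Cd8a at -0.10, Zap70 at -0.20 and Lat at -0.25. At day 10, Cd3e stood at 0.01 under library size alone, with or without entinostat day 17 replicate 3. At day 10, Cd247 stood at 0.10 under library size alone with or without that library, 0.07 at a minimum count of 50, 0.01 over genes of at least 5 CPM and 0.02 without that library, 0.04 in the compared groups alone, 0.02 with the covariate, 0.03 without vehicle day 10 replicate 2 (-0.09 to 0.10 over all settings that leave out a library) and 0.12 on the CD3 scale, and Zap70 stood at 0.03 under library size alone, with or without that library, and 0.06 on the CD3 scale. Over time with entinostat, Lck stood at -0.04 on the CD3 scale, and Zap70 at 0.05 under library size alone (0.12 without that library), 0.05 at a minimum count of 50, 0.00 over genes of at least 5 CPM (0.06 without that library), 0.03 with the covariate and 0.00 without entinostat day 17 replicate 4 (-0.21 to 0.12 over all settings that leave out a library). Over time with vehicle Cd8a stood at 0.10 on the CD3 scale, and for the difference of effects Cd247 stood at -0.37, Zap70 at -0.26 and Lat at -0.22. Depth limits entinostat day 17 replicate 3 most, at 554593 counts, and Trat1 most among the members.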
